A study of Mus musculus with 4 samples.

Results

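The 47 genes described here are transcription factors that pattern the nervous system, gut, heart, limbs and skeleton, and they are known in many tissues as silent targets of the Polycomb repressors. They were chosen by name, with earlier results of these data known. All 47 were found among 21887 protein-coding genes of the RefSeq gene table for GRCm38. Every region of the authors' table that overlapped a gene body with 5 kb on each side was taken. These windows held 206 of the 484555 listed regions. The regions came from whole-genome bisulfite sequencing of sorted hair matrix keratinocytes, which divide in the follicle bulb and form the hair shaft, of mice at postnatal day 4.5. The groups were WT (2 libraries) and Tet2/Tet3 DKO with Krt14-Cre (2 libraries), in which Cre is driven from the keratin 14 gene of basal epithelium. The labels do not state whether the WT mice carried Cre, the sex of the mice or whether the libraries came from separate animals. Each level below is the authors' mean for a group, in percent of cytosines read as methylated, and each difference is DKO minus WT in percentage points. Values per library and depth were not analysed here, so no difference has a replicate check or a test. The table's title names WT first and its columns name no group, so group 1 was read as WT, and every direction would turn if that order were the opposite. Bisulfite reads do not separate 5-methylcytosine from 5-hydroxymethylcytosine.

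Polycomb complexes hold developmental regulators in a repressed state that is marked on histones rather than on DNA. The genes they cover typically lie in wide, CpG-rich stretches with little DNA methylation, often called methylation valleys. TET enzymes oxidise 5-methylcytosine and take part in its removal, and TET proteins are known to act at CpG-rich promoters and at the edges of such valleys as well as at enhancers. Among the 47, Sox2 also marks dermal papilla and Merkel cells and Pax3 also marks the melanocyte lineage. The table gives methylation only, so the labelled cell type could not be checked by expression and silence of these genes is background rather than a measurement.

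Printed here are the bases before the start of the genes with a listed region within 1 kb of it. The listed regions lie beside these bases and do not overlap them. The levels below thus refer to nearby sequence and not to the bases printed. The sequences are from the RefSeq promoter table (GRCm38.p6), 250 bases each up to the base before the start, written in the direction of transcription with every CpG in capitals.
Pax5 (chr4:44710695-44710944, minus strand): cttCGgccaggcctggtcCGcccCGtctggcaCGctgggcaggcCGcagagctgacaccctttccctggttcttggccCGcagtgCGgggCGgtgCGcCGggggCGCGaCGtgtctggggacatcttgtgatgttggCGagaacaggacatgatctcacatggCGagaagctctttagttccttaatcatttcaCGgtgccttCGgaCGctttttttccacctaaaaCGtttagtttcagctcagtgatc
Barhl1 (chr2:28916669-28916918, minus strand): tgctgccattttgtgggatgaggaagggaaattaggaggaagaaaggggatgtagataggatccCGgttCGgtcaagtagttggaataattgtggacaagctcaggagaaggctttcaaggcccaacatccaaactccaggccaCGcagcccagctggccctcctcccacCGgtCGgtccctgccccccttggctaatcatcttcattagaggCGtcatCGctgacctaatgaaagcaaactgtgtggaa
Pax1 (chr2:147364744-147364993, plus strand): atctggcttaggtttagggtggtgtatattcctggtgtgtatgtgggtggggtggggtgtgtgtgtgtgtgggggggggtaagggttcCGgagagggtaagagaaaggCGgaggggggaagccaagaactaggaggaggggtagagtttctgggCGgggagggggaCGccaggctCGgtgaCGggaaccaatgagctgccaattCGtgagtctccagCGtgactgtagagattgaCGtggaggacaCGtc
Lhx3 (chr2:26208250-26208499, minus strand): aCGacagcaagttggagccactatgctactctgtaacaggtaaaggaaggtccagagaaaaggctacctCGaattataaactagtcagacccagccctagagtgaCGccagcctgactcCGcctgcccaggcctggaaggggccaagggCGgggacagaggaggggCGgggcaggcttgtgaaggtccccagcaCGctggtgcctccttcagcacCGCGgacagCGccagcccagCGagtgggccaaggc
Pax5, the only gene of these 4 with a higher DKO level near its start, had 19 CpGs in these bases. Lhx3 had 11, Pax1 had 10 and Barhl1 had 7. The listed regions within 1 kb of these starts were at 56.5% (WT) and 80.1% (DKO) for Pax5, 24.6% and 17.4% for Lhx3, 13.3% and 7.80% for Pax1, and 10.5% and 7.23% for Barhl1. The levels were thus lower in DKO near 3 of the 4 starts and higher near that of Pax5. A promoter entry, here 300 bases across the start, was found for 37 of the 47 genes, and Pax3, Sox17, Lhx5, Gata4, Gata6, Otx1, Tbx5, Tbx15, Olig1 and Hand1 had none. The letters CG, which read the same on both strands, occurred at least 10 times in 81.1% of the 37 entries and in 57.2% of all 17492 genes with an entry. The median number of CpGs per entry was 18 in the 37 (range 4 to 42) and 13 over all genes. Lhx8 had the fewest and Barhl2 the most.

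Few of the developmental factors held a region with a clearly higher level in the DKO. A region at least 20 points higher, called a gain here, lay in the windows of 11 of the 47 genes (23.4%), against 64.4% of all protein-coding genes. The 11 were Pax2, Pax3, Pax5, Pax7, Six2, Six3, Gata4, Gata6, Emx2, Tbx15 and Barhl1. In another 5 the highest difference was below 20 points, and in those it was 19.5 at Nkx2-2, 17.3 at both Pax8 and Lhx4, 16.4 at Otx1 and 15.8 at Hand1. These 16 genes were all that held any region with a DKO mean above that of WT, against 71.2% of all genes. A further 21 genes held only regions with a lower DKO mean, and 10 held no listed region (37 of 47 with any region, against 88.6% of all genes). Gains covered on average 0.290% of the windows of the 47 genes and 2.67% of the windows of all genes.

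**Figure D1:**
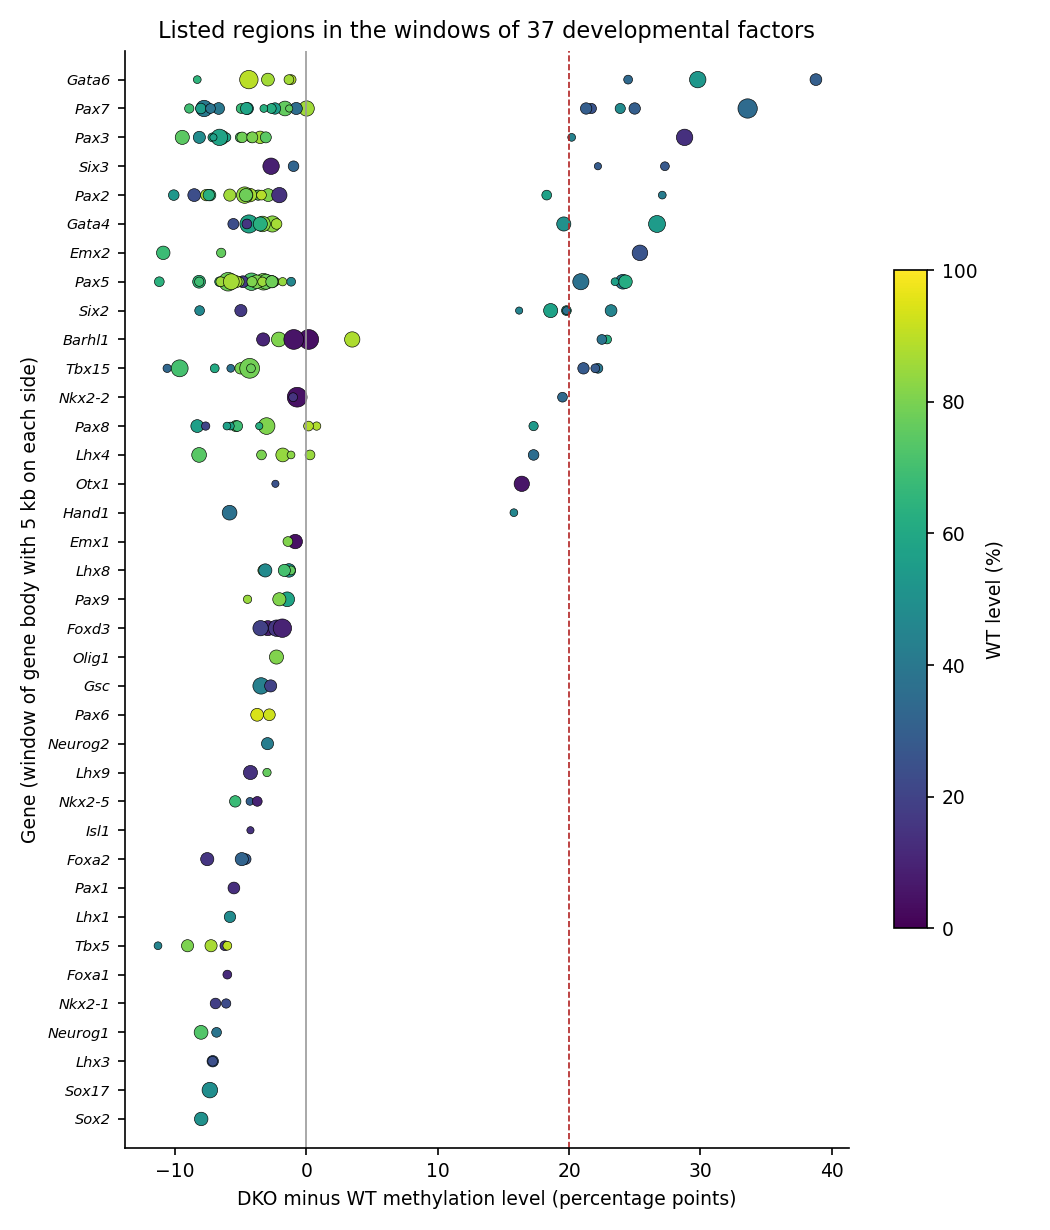
Each point is a listed region in the window of 1 of the 37 developmental factors that held any, placed by its DKO minus WT level in percentage points, coloured by its WT level in percent and sized by its number of cytosine positions (up to 40). Genes are ordered by their highest difference, the dashed line is at 20 points, and 11 genes have points to its right.

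Gene length differed strongly between the genes with and without a gain. The median length was 72799 bp in the 11 with a gain and 6412 bp in the other 36, and the 10 genes without any listed region were between 2065 and 10864 bp long. Set beside genes of the same length class, a choice made after the values were seen, the shares still differed. Of the 25 factors under 10 kb, only Emx2 held a gain (4.00%), against 41.1% of all genes of that length. The counts were 4 of 13 (30.8%) at 10 to 50 kb, against 71.5%, and 6 of 9 (66.7%) over 50 kb, against 88.9%. All of the factors over 50 kb held some listed region, as did 99.5% of all genes of that length. Some listed region was also held by 12 of 13 at 10 to 50 kb, against 94.8%, and by 16 of 25 under 10 kb, against 74.8%.

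**Figure D2:**
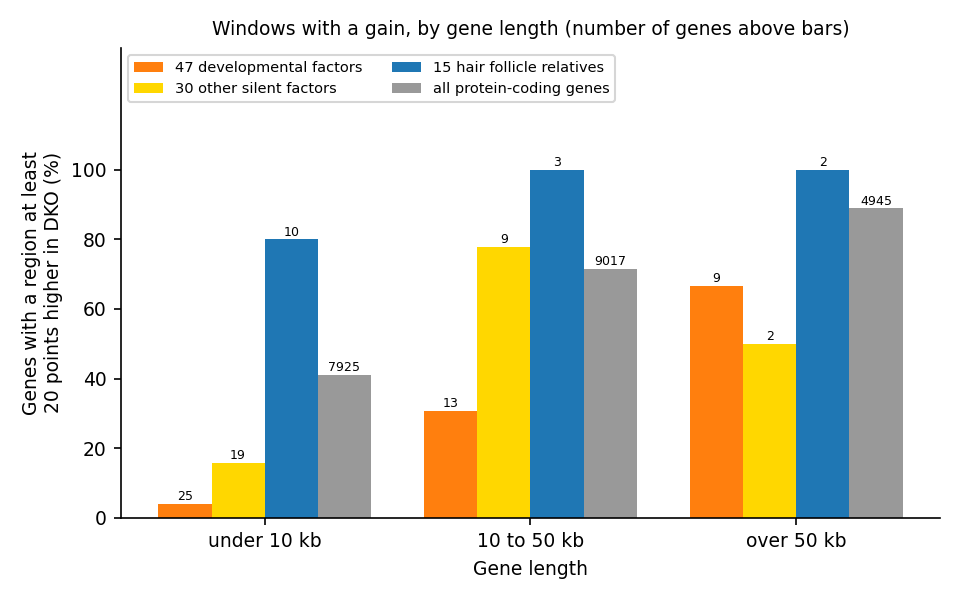
Bars give the percent of genes whose window holds a region at least 20 points higher in the DKO, for genes under 10 kb, 10 to 50 kb and over 50 kb, with the number of genes above each bar. The 47 developmental factors stand at 4.00%, 30.8% and 66.7%, and all protein-coding genes at 41.1%, 71.5% and 88.9%.

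Regions of intermediate methylation, the class that holds most gains elsewhere, were mostly not gains in these windows. Of the 79 regions with a WT level of 20% to 60%, 22 were gains (27.8%), against 81.0% of the regions of that level in the windows of all genes. The median difference was -2.61 points in the 79 regions and 27.5 points over all genes, and 48 of the 79 had a lower DKO mean (60.8%, against 10.1%). In the factors under 10 kb, 1 of 17 such regions was a gain (5.88%), against 70.9% in all genes of that length. At 10 to 50 kb it was 7 of 17 (41.2%, against 79.0%), with only 6 lower and a median difference of 19.5 points, opposite in sign to that of the 79 (all genes of that length 26.7 points). Over 50 kb it was 14 of 45 (31.1%, against 82.9%), with a median difference of -4.37 points. Without Pax5 and Pax7, the genes with the most listed regions, the share was 23.0%, and with at least 10 positions per region it was 30.6%. Over all WT levels, gains made up 12.1% of the 206 regions and 22.9% of all listed regions.

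**Figure D3:**
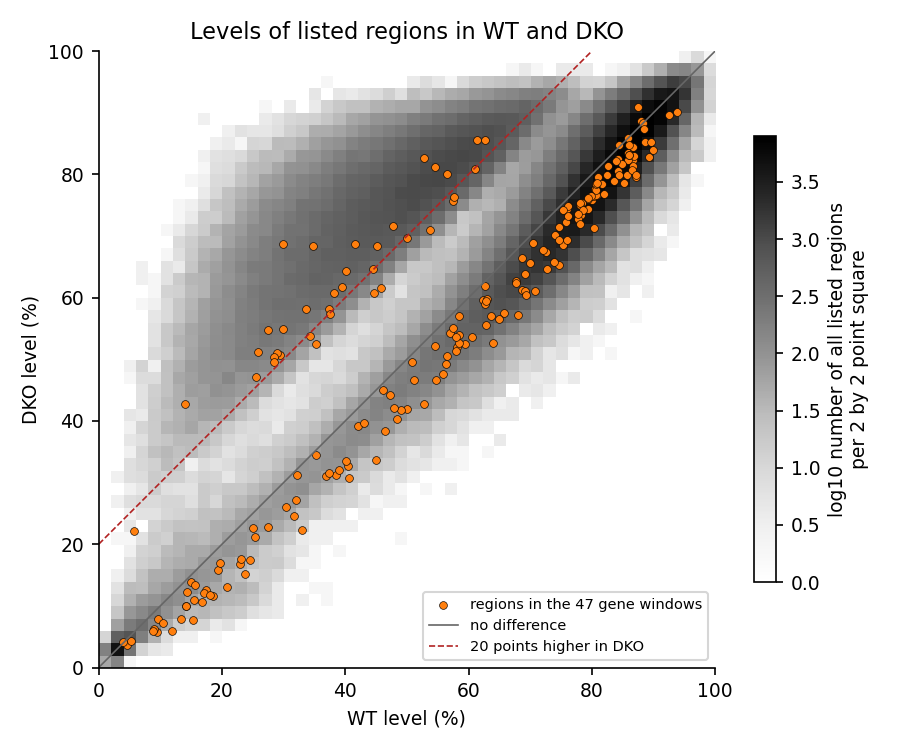
Each orange point is 1 of the 206 listed regions in the windows of the developmental factors, with the WT level on the x axis and the DKO level on the y axis, both in percent. Grey squares count all 484555 listed regions on a log10 scale. Most orange points lie just under the line of no difference, and 25 lie above the dashed line at 20 points.

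The 25 gains of these genes were modest. In WT their levels had a median of 37.3% (quartiles 28.9 and 45.1), and in DKO 61.7% (quartiles 51.2 and 68.7). Over all 111028 gains of the table the medians were 45.6% and 76.3%. A DKO level of at least 60% was reached by 14 of the 25 (56.0%), against 88.5% of all gains, and a difference of at least 30 points by 2 (8%), against 42.0%. The median length was similar, 338 bp against 345 bp. At the threshold itself, the regions just inside were at Tbx15 (21.1 points), Pax5 (20.9) and Pax3 (20.2), and those just outside were at Six2 (19.8 points in 2 regions) and Gata4 (19.6).

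The Pax genes encode paired-box factors of the eye, kidney, muscle, thyroid and B cell lineages, and 4 of the 8 studied here held gains. These 4 and Pax8, which held none, were over 50 kb long, a class in which 88.9% of all genes held a gain. Pax1, Pax6 and Pax9 were 10 to 50 kb long (71.5% of all genes of that length). Pax7, a factor of muscle satellite cells and neural crest, held 5 gains among its 21 listed regions, all inside the gene. The widest, of 38 positions at chr4:139798482-139800119, was at 34.7% in WT and 68.3% in DKO (33.6 points, spread estimate 3.71). It lay 32849 bp downstream of the start, and the other 4 were between 21.3 and 25 points. Other intermediate regions in Pax7 had lower DKO means, such as 40.5% and 32.7% over 26 positions at chr4:139754516-139755554. Pax5, the B cell commitment factor, held 4 gains among 29 regions, from 20.9 to 24.3 points. Of these, a region of 2 positions at chr4:44709914-44709990 was at 56.5% in WT and 80.1% in DKO, 704 bp inside the gene from its start. It was the only gain within 1 kb of a known start in the 37 genes, and it rests on 2 positions.

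Pax3, needed in neural crest, muscle precursors and melanocytes, held the gain with the lowest WT level of the 25. It spanned 26 positions at chr1:78120275-78121010 inside the gene and was at 14% in WT and 42.8% in DKO, which was also the lowest DKO level of the 25. A second gain in Pax3 had only 2 positions (44.5% and 64.7%). Pax2, a kidney and eye factor, held 1 gain among 16 regions, also of 2 positions (41.6% and 68.7%). Pax8, a thyroid and kidney factor, held 11 regions, of which 3 were higher and the highest went from 53.7% to 71.0%. Pax1, Pax6 and Pax9 held only lower regions, for example 93.8% and 90.1% at Pax6, the eye field factor. The 2 listed regions of Pax6 lay in the last part of its window and nothing was listed for 27606 bp after the start.

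Of the 25 gains, 19 lay inside a gene and 6 outside, and these 6 were at Six2, Six3, Emx2 and Barhl1. The 4 genes are described here with other head and forebrain factors. That grouping is a choice of description, so gains outside the gene are not shown to be a trait of such factors. Pax2, the kidney and eye factor above, held its gain inside the gene. Six2, a nephron progenitor and head mesenchyme factor, had 5 of 7 regions higher in the DKO, from 16.2 to 23.2 points, and 1 of them passed 20 points (45.1% and 68.3%, 959 bp beyond the gene's far end). Six3, which patterns the forebrain, held 2 gains beyond its far end, of 1 and 4 positions, from 28.9% to 51.1% and from 27.4% to 54.8%. At Emx2, a cortex and urogenital factor, 23 positions at chr19:59470165-59470689 were at 25.8% and 51.2%, 4808 bp outside the gene, while 16 positions 864 bp outside it were at 68.1% and 57.2%. Barhl1, a neuronal homeobox factor, held 2 gains beyond its far end (38.2% and 60.7%, then 62.7% and 85.5%). Inside Barhl1 a dense region of 143 positions stayed at 3.93% in WT and 4.11% in DKO. Otx1 showed the only region of the set that was under 10% in WT and above 20% in DKO, 22 positions at chr11:21994550-21994739, 25 bp outside a gene end, with levels of 5.69% and 22.1%. Of all 8810 listed regions under 10% in the WT, 4.86% were at 20% or more in the DKO. Otx2, Six6 and Barhl2 held no listed region, and Emx1 held 2 regions, at 4.58% and 3.73% and at 81.0% and 79.6%.

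Endoderm and mesoderm factors included the largest difference. Gata6, a zinc finger factor of heart and endoderm, held 3 gains among 9 regions. One was at 29.9% in WT and 68.7% in DKO (38.8 points, spread estimate 4.42, 11 positions, chr18:11074592-11075232), the next at 33.6% and 58.1%, and a region of 26 positions 118 bp inside a gene end at 52.8% and 82.7%. Its relative Gata4 held 1 gain, at 54.5% and 81.2% over 28 positions. Elsewhere in Gata4, a region of 33 positions was at 58.0% and 53.6%. Tbx15, a T-box factor of limb skeleton and dermal patterning, held 3 gains of 21.1 to 22.2 points and also 3 neighbouring small regions with lower DKO means, such as 33.0% and 22.3%. Tbx5, the heart and forelimb factor, held 6 regions, all lower, including the lowest difference of the set (45.0% and 33.7% over 2 positions, -11.3 points). The pioneer factors Foxa1 and Foxa2 held only lower regions, 11.9% and 5.86% at Foxa1 and 27.4% and 22.8% at the far end of Foxa2. Sox17, an endoderm factor, was at 49.1% and 41.8%, 2129 bp outside the gene, and Hand2 held no listed region.

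The genes described next, mostly factors of neural identity, were put together after their values were seen, and none held a gain. Sox1, Sox14, Lhx5, Nkx6-1, Olig2 and the caudal patterning factor Evx1 held no listed region. Sox2, a stem cell and neural factor, held a single region downstream of the gene, at 50% and 42.0%. The LIM homeobox genes Lhx1, Lhx3, Lhx8 and Lhx9 held only lower regions, with Lhx3 at 24.6% and 17.4% across 6 positions 279 bp upstream of its start. At Nkx2-2, a ventral neural and pancreatic factor, 56 positions inside the gene were at 4.62% and 3.91%, and the region at 19.5 points lay 1521 bp outside the gene. The lung and thyroid factor Nkx2-1 and the heart factor Nkx2-5 held only lower regions at WT levels of 9.45% to 67.7%. Foxd3, a neural crest factor, held 4 regions with WT levels of 8.80% to 19.3% and DKO levels of 5.87% to 15.8%. The proneural genes Neurog1 and Neurog2, Olig1 and the organiser factor Gsc held lower regions only.

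At the gene ends, listed regions were few. Ends are the outer limits of the RefSeq gene, which for some genes lie away from the start of the promoter entry. At Pax1 the region within 1 kb of that start is thus not counted among the end regions. Within 1 kb of either end, 16 of the 47 genes held any listed region (65.7% of all genes did) and 4 held a gain (8.51%, against 23.6% of all genes), namely Pax5, Six2, Gata6 and Barhl1. With at least 10 points, Otx1 joined them (5 of 47, against 26.3%). The 20 regions at the ends had a median of 48.0% in WT and 58.9% in DKO, while 12 of the 20 had a lower DKO mean and the median of the differences was -2.44 points, opposite in sign to the difference of the medians. Over the 23843 listed regions at the ends of all genes the medians were 48.1% and 67.8%, and 46.5% were lower, against 12 of 20 (60%). Counted over the end regions themselves, 4 of 20 were gains (20%), near the 25% of all genes. Where the strand is known, the gains at Six2 and Barhl1 lay at the far end of the gene and that of Pax5 at its start.

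None of the 37 known gene starts lay in a listed region, against 29.0% of the starts of all genes with an entry. The stretches without a listed region around these 37 starts were dense in cytosine positions that the table's index counts, although the reads behind each position are unknown. They had a median length of 19876 bp (range 3620 to 59979) and a median of 898 measured positions, which gives 46.4 positions per kb (interquartile range 38.4 to 59.9). Unlisted stretches over the starts of all genes had a median of 21.8 positions per kb, and the autosomes as a whole 14.7. Such density was not particular to these factors. In the lists described below, the median was 78.5 for hair follicle relatives, 51.2 for Polycomb complex genes and 45.7 for other silent developmental factors. Of the 37 stretches, the longest was at Pax6 and the densest at Foxd3, with 126 positions per kb. The table gives no level for an unlisted stretch, so these counts show where no difference was listed and not that the DNA is unmethylated. Low levels were seen directly in 8 regions of 6 genes that were listed under 10% in both genotypes (12.8% of the 47 genes, against 34.3% of all genes). They lay in Barhl1, Nkx2-2, Emx1, Foxd3, Six3 and Nkx2-5, held 363 positions, and ranged from 3.93% to 9.64% in WT and from 3.73% to 7.81% in DKO.

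**Figure D4:**
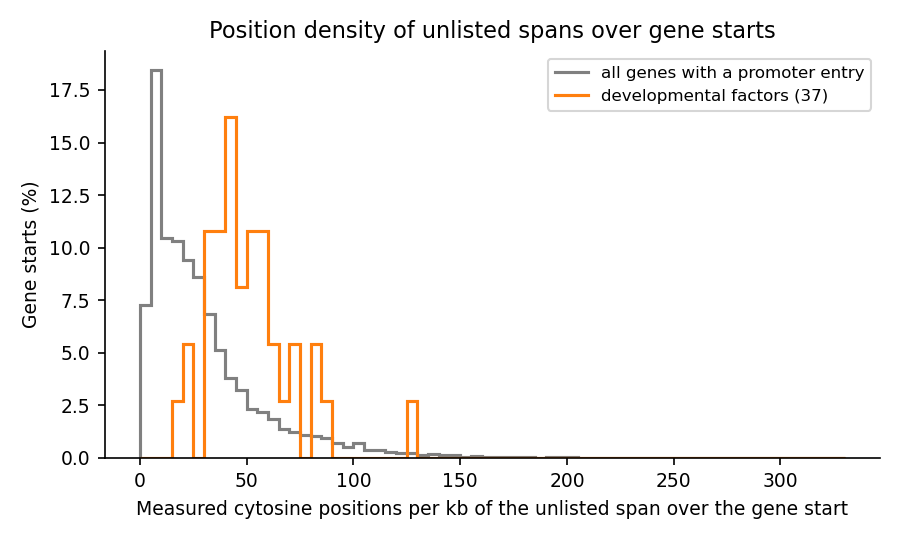
Steps give the percent of gene starts by the number of measured cytosine positions per kb in the unlisted stretch around the start, for the 37 developmental factors and for all genes with a promoter entry whose start is outside a listed region. The medians are 46.4 and 21.8 positions per kb.

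The 10 genes with no listed region lay in unlisted stretches of 16051 bp at Evx1 to 48763 bp at Sox1, with 747 measured positions at Six6 to 2077 at Sox1. The first listed regions outside them had lower DKO means on both sides of every gene but Olig2, while 51.8% of all listed regions were lower. The unequal bound on listing that is given below applies here too. Around Sox1 they were at 68.1% and 64.8% on the low-coordinate side and at 80.7% and 75.2% on the other. Around Otx2 they were at 80.9% and 73.6%, then 64.3% and 58.1%. Olig2, the oligodendrocyte factor, was the exception among the 10, with a region of 21 positions 15441 bp from the gene at 40.7% in WT and 71.9% in DKO.

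The first listed region with a WT level of at least 20%, on each side of the start within the 5 kb window, stood in for a valley border. Where the start is not known, each side of the gene was used. This is the nearest listed region of that level and not a measured valley edge, and it lay up to 34438 bp from the start (downstream at Lhx4). Such a region was found on 33 sides of 29 genes, at a median distance of 4540 bp, with a median level of 39.0% in WT and 42.0% in DKO. The median of the differences region by region had the other sign, -4.22 points. Of the 33, 28 had a lower DKO mean (84.8%) and 2 were gains (6.06%), at Pax5 and Barhl1. Of 29730 such regions of all genes, 45.7% were lower and 34.7% were gains, and their median levels were 66.7% and 75.7%. The other 3 higher ones were those of Six2 (37.5% and 57.4%), Nkx2-2 (34.3% and 53.8%) and Lhx4 (35.2% and 52.4%). Typical lower borders were those of Neurog1 (39.0% and 32.1%), Gsc (43.1% and 39.6%), Sox2 and Lhx1 (47.9% and 42.1%). Reaching out to 20 kb beyond the gene, a border was found on 83 sides of all 47 genes, and 9 of the 83 were gains (10.8%, against 29.8% for all genes at that reach) while 68 had a lower DKO mean (81.9%, against 52.5%).

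**Figure D5:**
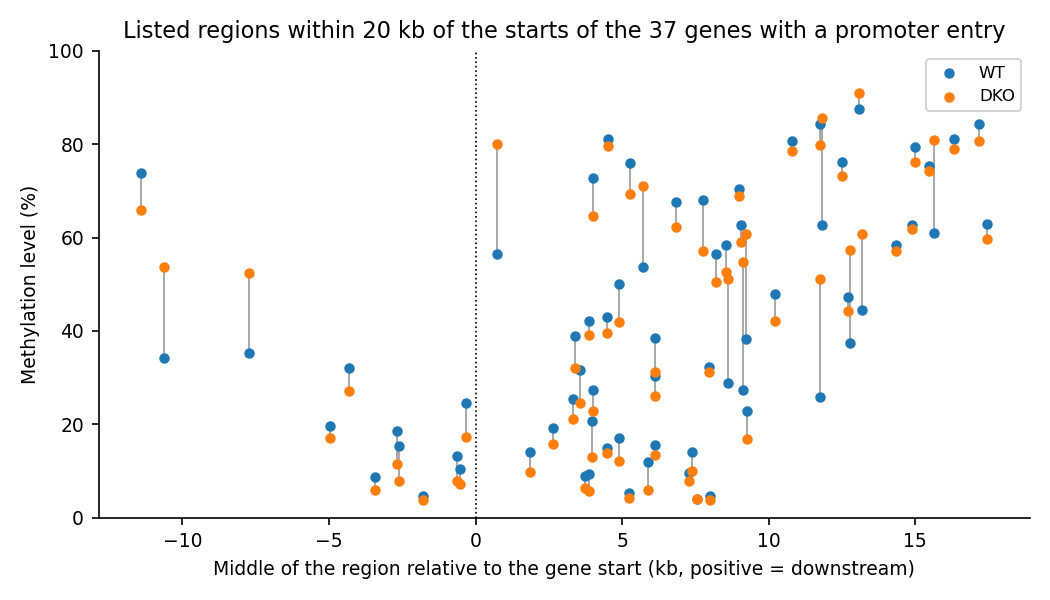
Each pair of points joined by a grey line is a listed region of a developmental factor with a known start, at its distance from the start in kb (positive is downstream) and with its WT and DKO level in percent. Regions within 5 kb of a start lie mostly under 50% in both genotypes, with the DKO point just under the WT point, and the pair just right of the start with a higher DKO point is Pax5.

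Lower DKO means were frequent and small. Of the 206 regions, 164 were lower in the DKO, with a median difference of -4.38 points (interquartile range -6.54 to -2.92), and made up 79.6% of the regions, against 51.8% of all listed regions (median -3.5 points). At least 1 lower region was held by 37 of the 47 genes (78.7%), close to the 82.6% of all genes. Among genes with any listed region these were 37 of 37, against 93.3%. The authors' spread estimate for the 206 regions had a median of 3.79 points (range 3.20 to 6.69), about the size of these differences. The extreme statistic of a listed region was at least 1.53 where positive but -4.02 or below where negative. It was positive in all 164 lower regions and negative in 36 of the 42 higher ones, and the 6 higher regions with a positive statistic differed by 0.0201 points (in Pax7) to 3.49 points (at Barhl1). Small higher regions with a negative statistic above -4.02 are thus not listed, and counts of lower against higher regions carry that unequal bound. A region at least 10 points lower was held by 5 genes (10.6%, against 8.50% of all genes), namely Pax2 (52.8% and 42.7%), Pax5 (63.9% and 52.7%), Emx2, Tbx5 and Tbx15. None was lower by 20 points.

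Relatives from the same or similar families that are active in the hair follicle gave other counts. These and the lists below were drawn up with earlier results of these data known, so the contrasts between lists are not independent support. Of 15 such genes, which were chosen by known expression, 13 held a gain (86.7%, against 64.4% of all genes), although their median length of 5900 bp was below the 8038 bp of the 47. In their windows 101 of 130 intermediate regions were gains (77.7%), near the 81.0% of all genes, and 7 of the 15 held a gain within 1 kb of an end (46.7%, against 23.6%). The largest gains, where a region had 10 positions or more, were at Foxp1 (33.3% and 88.2%), Msx2 (30.2% and 82.7%) and Foxn1, the hair keratin activator (22.5% and 69.6%). Side by side within families, the highest difference was 45.9 points at Lhx2, the hair stem cell LIM factor, but 17.3 at Lhx4 and no higher region at Lhx1, Lhx3, Lhx8 or Lhx9. It was 29.5 points at Sox9 and 27.5 at Sox21, with no higher region at Sox1, Sox2, Sox14 or Sox17, and it was 40.7 at Gata3, the inner root sheath factor, beside 38.8 at Gata6. Foxq1 and Hoxc13 were the 2 relatives without a gain.

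A second list of 30 developmental factors of the same kind gave counts between these. A gain was held by 11 of 30 (36.7%, against 64.4%), with 16 of 43 intermediate regions as gains (37.2%, against 81.0%), a median difference of 17.4 points in the 43 (27.5 over all genes), and a mean coverage of 0.794% (2.67%). Under 10 kb the share with a gain was 15.8% of 19 genes, against 41.1%. At 10 to 50 kb it was 77.8% of 9 genes, above the 71.5% of all genes of that length. Over 50 kb a gain was held by 1 of 2 genes, against 88.9%. A lower share than in all genes was thus not seen at 10 to 50 kb in this list. The largest gains of the list were at Sim2 (34.1% and 72.5%), Wt1 (58.2% and 86.6%) and Onecut1 (28.8% and 55.7%). Among the 32 genes that encode Polycomb complex subunits and their partners, 26 held a gain (81.2%, against 64.4%), with 101 of 121 intermediate regions as gains (83.5%), near the 81.0% of all genes. Their median length was 29932 bp, against 17169 bp, and by length the shares with a gain were 42.9% under 10 kb (all genes 41.1%), 92.9% at 10 to 50 kb (71.5%) and 90.9% over 50 kb (88.9%). These included Phc2 (16.9% and 66.6%), Jarid2 (40.6% and 88.4%) and Mtf2 (47.2% and 92.2%). At the catalytic subunit gene Ezh2 the highest difference was 24.1 points, at Eed 23.2 and at Suz12 36.1. The only gain at Eed was very small and covered 0.00551% of its window, against 0.371% for gains at Ezh2 and 2.67% at Suz12. No test between these lists was made.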

How the data were processed

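Whole-genome bisulfite libraries (2 WT, 2 DKO) gave cytosine methylation. The submitters' processing notes name Trim Galore, Bismark and the build GRCm38 (mm10). How regions were called, smoothed and filtered is not given in the sources used here. Per the file headers, the deposited table gives a mean level per group as a fraction (multiplied to percent here), a statistic for each region, which is a score with no fixed range, and a spread estimate. Neither read counts nor library values stand in it, so depth is unknown and the planned logistic model was replaced by description. Of regions with 2 positions, 89.2% were 2 bp wide, so a CpG mostly counts as 2 positions. Positions between regions were counted from the deposited index of each region's first and last position.

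Gene coordinates and promoter entries were RefSeq (GRCm38.p6). The start used was the outermost where a gene had several entries. The 47 genes and the other lists were chosen with earlier results of these data known. Named in full were genes with a gain, those with the most regions or the largest lower differences, those at the threshold, and the 3 largest of each other list. Counts were set beside the same counts over all protein-coding genes with no list test. Overlap, coverage and neighbour functions were tested on simulated data. The tools were Python 3.11.15, numpy 2.4.6, pandas 2.3.3 and matplotlib 3.10.9. Alternatives were other windows, gains, minimum positions, ends and border levels.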

Additional observations from a re-analysis of the deposited data

How the results depend on the processing

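No paired analysis was possible because the table holds no values per library, and for the same reason no library could be left out. Within 5 kb of the gene, 11 of the 47 genes held a gain. The count was 7 in gene bodies alone (52.2% of all genes), 20 with 10 kb on each side (69.5%), 26 with 20 kb (75.1%), and 2, Gata6 and Pax7, at 30 points (39.4%), so the share of the 47 lay below that of all genes at each of these settings. With 2 kb on each side, minimum positions, midpoints or 10 points it was between 8 and 16 (54.9% to 68.3% of all genes). The count of genes with any region stayed within 1.5 times 37 under each alternative. It was lowest in gene bodies alone, at 26 (78.6% of all genes), and highest with 20 kb, at 47 (95.6%). At gene ends the count of genes with a gain was 2 in place of 4 within 500 bp (12.4% of all genes). It was also 2 with at least 10 positions (16% of all genes). Mean coverage was 0.0644% at 30 points (all genes 1.42%) and 6% as a percent of listed positions (all genes 20.5%). The medians at gene ends were 45.5% and 64.0% (WT and DKO) within 500 bp, and the mean weighted by positions was 29.0% and 32.7%. Border medians followed the level that defined a border, and were 34.7% and 31.4% at 10%, 69.1% and 67.3% at 40%, 62.7% and 66.8% out to 20 kb, and 58.5% and 57.2% with at least 10 positions. The DKO median was thus above that of the WT in 2 of the 5 border settings and below it in 3. The length classes and the intermediate class were added after seeing the data.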

Other observations

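Markers of other cell types that a sort of skin epithelium could hold were looked at in the same way. A gain lay in the windows of 5 of 8 melanocyte genes, 7 of 7 dermal papilla and fibroblast genes, 4 of 5 Merkel cell genes and 4 of 5 endothelial and immune genes, beside 6 of 6 keratinocyte genes and 64.4% of all protein-coding genes. The melanocyte share (62.5%) was thus at that of all genes. The marker genes without a gain were Sox10, Tyr, Ednrb, Atoh1 and Kdr. All listed regions were lower in DKO at the pigment gene Tyr (7), the endothelial gene Kdr (5) and Atoh1 (1). The highest difference was 18.6 points at Sox10 and 17.0 at Ednrb. The largest gains of their lists, among regions of at least 10 positions, included the pigment enzyme gene Dct at 29.3% in WT and 82.3% in DKO. Others were the proteoglycan gene Dcn at 29.3% and 74.6%, and the endothelial adhesion gene Pecam1 at 24.3% and 75.1%. The keratinocyte genes held Lef1, a Wnt effector of the hair matrix, at 29.3% and 83.3%. Intermediate regions were gains in 83.3% of cases in the melanocyte list, 75% in the fibroblast and Merkel cell lists, 75.6% in the keratinocyte list and 75.8% in the endothelial and immune list, all near the 81.0% of all genes. The part of other cells in the levels of Pax3 and Sox2 was not tested.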
